A study of Mus musculus with 2 samples.

Results

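The forkhead (Fox) and Sox genes encode a pair of families of DNA-binding transcription factors. They were taken from a table of 35529 mouse genes as the rows of type mRNA whose symbol starts with Fox, a letter from a to s and a digit, or with Sox and a digit, which gave 63 genes, 44 Fox and 19 Sox. The rule used names only and no measured value. RNA was compared between 2 libraries, each 1 pool of total RNA from 6 individuals. The adenoma pool was made from colon adenomas that arose in wild-type C57BL/6 mice given AOM and DSS. AOM is azoxymethane, a carcinogen of the colon, and DSS is dextran sodium sulfate, an irritant that damages its lining. Untreated wild-type mice of the same strain gave the control pool, made from normal colon. Age and sex are not given in the sources used here, and whole tissue was used, so a lower value can come from fewer cells of a type or from less RNA per cell, and these cannot be told apart. With 1 library per group there was no replicate error and no test between the pools, and no difference below has a replicate check. Values are RPKM, a read count divided by the length of the gene and the size of the library. The 95% intervals beside fold changes are exact (Clopper-Pearson) intervals from estimated reads and cover counting error only.

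Forkhead factors bind DNA through a winged-helix domain. FoxA factors open chromatin in endodermal epithelium, FoxF and FoxL1 act in the gut mesenchyme that faces the crypts, FoxO factors are held outside the nucleus by insulin and growth factor signalling, and FoxM1 drives genes of mitosis. Sox factors bind and bend DNA through an HMG box, and are sorted by the likeness of that box into groups: SoxB (Sox2 and Sox21 among others), SoxC (Sox4, Sox11, Sox12), SoxD (Sox5, Sox6, Sox13), SoxE (Sox8, Sox9, Sox10) and SoxF (Sox7, Sox17, Sox18). In mouse colon, Sox9 marks the Wnt-responsive crypt base, SoxF genes mark vessels and Sox10 marks enteric glia.

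Promoter windows are shown for 4 genes that stood among the greatest differences and have an entry in the RefSeq table of GRCm38.p6, Sox4 and Sox21, which were higher in the adenoma pool, and Foxd2 and Foxo3, which were lower. Each window runs 5′ to 3′ on the gene's strand over at most 250 bases before the RefSeq start, without bases inside the GENCODE M21 gene, and capitals mark CpG dinucleotides. The windows lie on the minus strand at chr13:28953714-28953949 (Sox4), chr14:118237031-118237280 (Sox21), chr4:114908899-114909148 (Foxd2) and chr10:42276756-42276945 (Foxo3).
Sox4: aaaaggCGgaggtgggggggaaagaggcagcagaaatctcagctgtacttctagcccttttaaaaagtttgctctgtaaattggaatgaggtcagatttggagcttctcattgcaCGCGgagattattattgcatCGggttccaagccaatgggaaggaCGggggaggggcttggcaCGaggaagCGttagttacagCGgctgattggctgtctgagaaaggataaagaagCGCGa
Sox21: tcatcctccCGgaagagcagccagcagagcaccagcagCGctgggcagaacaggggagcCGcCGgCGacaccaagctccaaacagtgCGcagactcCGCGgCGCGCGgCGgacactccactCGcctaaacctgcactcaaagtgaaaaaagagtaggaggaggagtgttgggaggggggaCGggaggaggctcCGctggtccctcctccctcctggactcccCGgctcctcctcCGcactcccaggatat
Foxd2: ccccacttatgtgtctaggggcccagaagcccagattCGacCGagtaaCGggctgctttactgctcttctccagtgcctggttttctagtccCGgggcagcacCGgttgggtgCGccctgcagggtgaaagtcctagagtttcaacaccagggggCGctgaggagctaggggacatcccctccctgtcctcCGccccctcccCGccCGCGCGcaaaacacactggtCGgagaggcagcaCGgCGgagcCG
Foxo3: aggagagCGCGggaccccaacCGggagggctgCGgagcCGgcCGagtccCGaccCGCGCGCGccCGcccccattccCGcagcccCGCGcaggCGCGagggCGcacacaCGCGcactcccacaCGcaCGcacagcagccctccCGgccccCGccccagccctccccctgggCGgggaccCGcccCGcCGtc
The Sox4 window holds 10 CpG in 236 bases and the Foxo3 window 28 in 190, with 17 in the Sox21 and 16 in the Foxd2 window of 250 bases each. An observed-to-expected CpG ratio above 0.6 was met by 32 of 51 upstream windows of the 41 members with an entry (62.7%), against 11153 of 32851 windows of all promoters (34.0%). All 4 windows shown exceed that ratio, those of the higher genes as well as those of the lower ones. The Sox21 window holds the letters TCAAAG, the reverse complement of the TCF/LEF core CTTTGA, and none of the other windows shown holds it. Searched on both strands, this core was in 6 of the 51 member windows (11.8%) and in 13.8% of all promoters. The forkhead core TGTTTAC was in 2 of 51 (3.92%) and 3.17% of all, and the Sox core AACAAT in 2 of 51 (3.92%) and 9.42% of all. These shares count windows, not genes, and some genes have several windows. The TCF/LEF core windows belong to Foxp1, Sox14, Sox21 and, more than once, Sox6, and the Sox core windows to Foxp1 and Sox6. The forkhead core can overlap the reverse complement of the Sox core, ATTGTT, at the letters TGTT. A match is a description, not a binding site.

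Most members were weakly expressed. Of the 63, 16 were listed at 0 in both pools, 20 were under 1 RPKM in both but above 0 in at least 1, and 27 reached 1 RPKM in at least 1 pool. In the adenoma pool 11 members reached 5 RPKM and 2 reached 10, and in the control pool 16 reached 5 and 9 reached 10. The adenoma pool was led by Sox4 at 24.0 RPKM, Foxa3 at 17.2, Foxo4 at 9.64 and Foxp4 at 9.41. The control pool was led by Foxp4 at 16.3 RPKM, Foxo4 at 15.3, Foxa3 at 14.2 and Foxa1 at 13.5. Sox4 held rank 1 of all members in adenoma and rank 14 in control. The RPKM of the 44 Fox genes summed to 98.1 in adenoma and 156 in control, and those of the 19 Sox genes to 49.7 and 38.5. The Fox sum was lower in adenoma at either scaling. The Sox sum was higher as deposited but not with the pools rescaled to equal sums, where it was 37.8 RPKM in adenoma against 38.5 in control. Sox4 was the largest part of the Sox sum in adenoma.

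**Figure D1:**
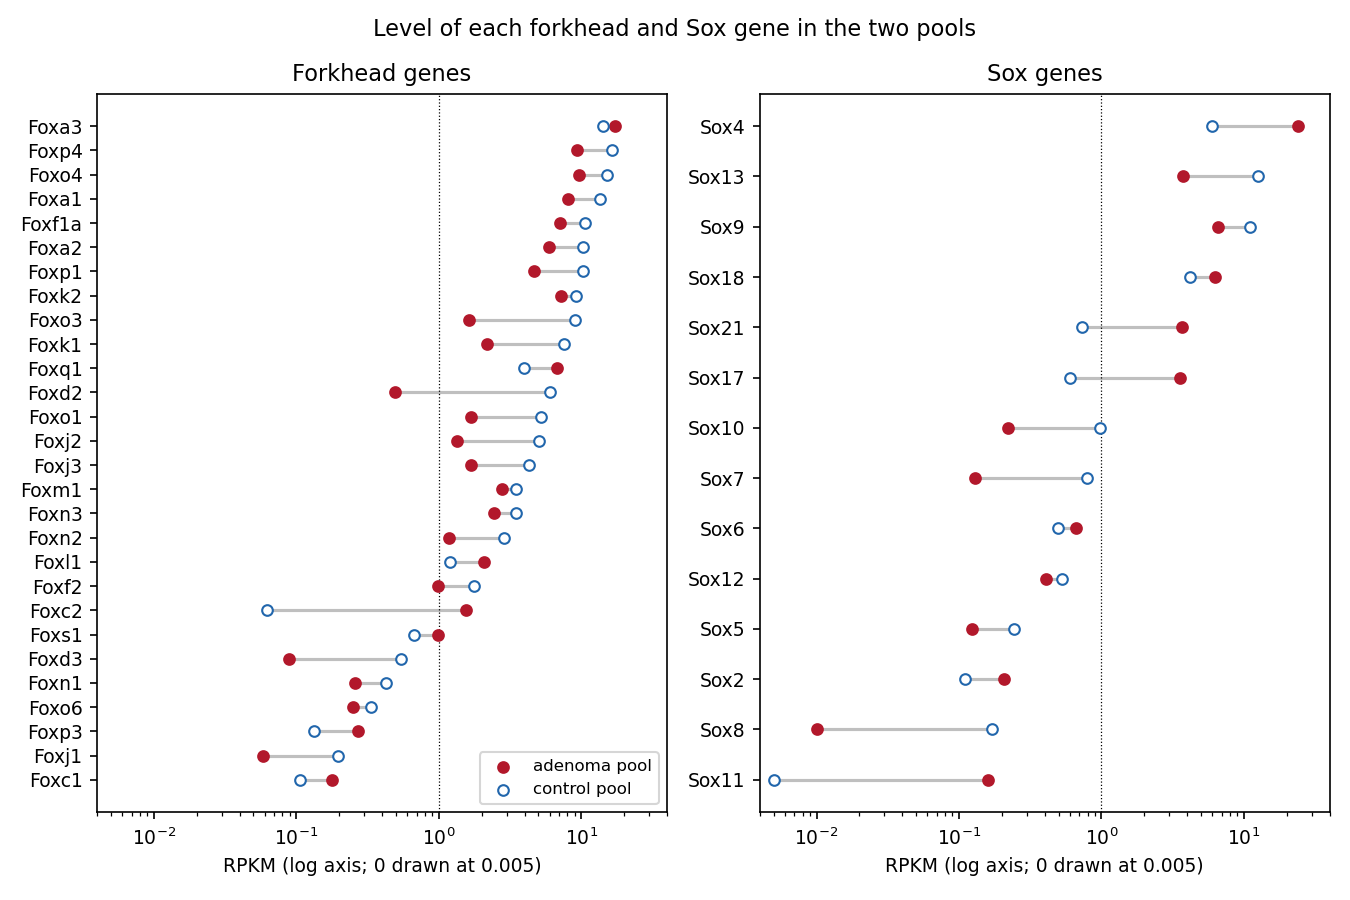
RPKM of each forkhead (left) and Sox gene (right) with at least 0.1 RPKM in either pool, on a log axis, with filled points for the adenoma pool and open points for the control pool. Sox4, Sox17, Sox21 and Foxc2 lie further right in adenoma, and Foxd2, Foxo3 and Sox13 further left; the dotted line is 1 RPKM.

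The comparison was made on log2((adenoma RPKM + 1)/(control RPKM + 1)) for members of at least 1 RPKM in either pool, a scale that understates the change of low genes, with 2-fold on it as the threshold. Of the 27 members past the filter, 4 (14.8%) were higher by 2-fold or more and 6 (22.2%) were lower by that much. Over all mRNA genes past the same filter these shares were 10.4% and 13.1%, so counts this small are near the background and say little about the families as such. The median log2 fold change of the 27 members was -0.61, against -0.17 for 12910 mRNA genes, and 19 of the 27 (70.4%) were below 0, against 58.1% of mRNA genes. Of the 21 Fox genes 1 was higher and 5 were lower with a median of -0.68, while of the 6 Sox genes 3 were higher and 1 lower with a median of 0.96. The higher genes were Sox4, Sox17, Sox21 and Foxc2. The lower ones were Foxd2, Foxo3, Sox13, Foxk1, Foxj2 and Foxo1. Sox17, Sox21 and Foxc2 passed the filter only through the adenoma pool, and Foxd2 only through the control pool, each where it was higher. The filter left out Sox7, Sox8 and Sox10, which were lower in adenoma, and Sox6 and Sox11, which were higher. The Sox counts and median thus depend on the filter and are no evidence of a difference between the families. Just outside the threshold stood Foxp1 at -0.99 and Foxj3 at -0.98, and Foxo1 at -1.20 and Foxc2 at 1.26 stood closest inside it.

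**Figure D2:**
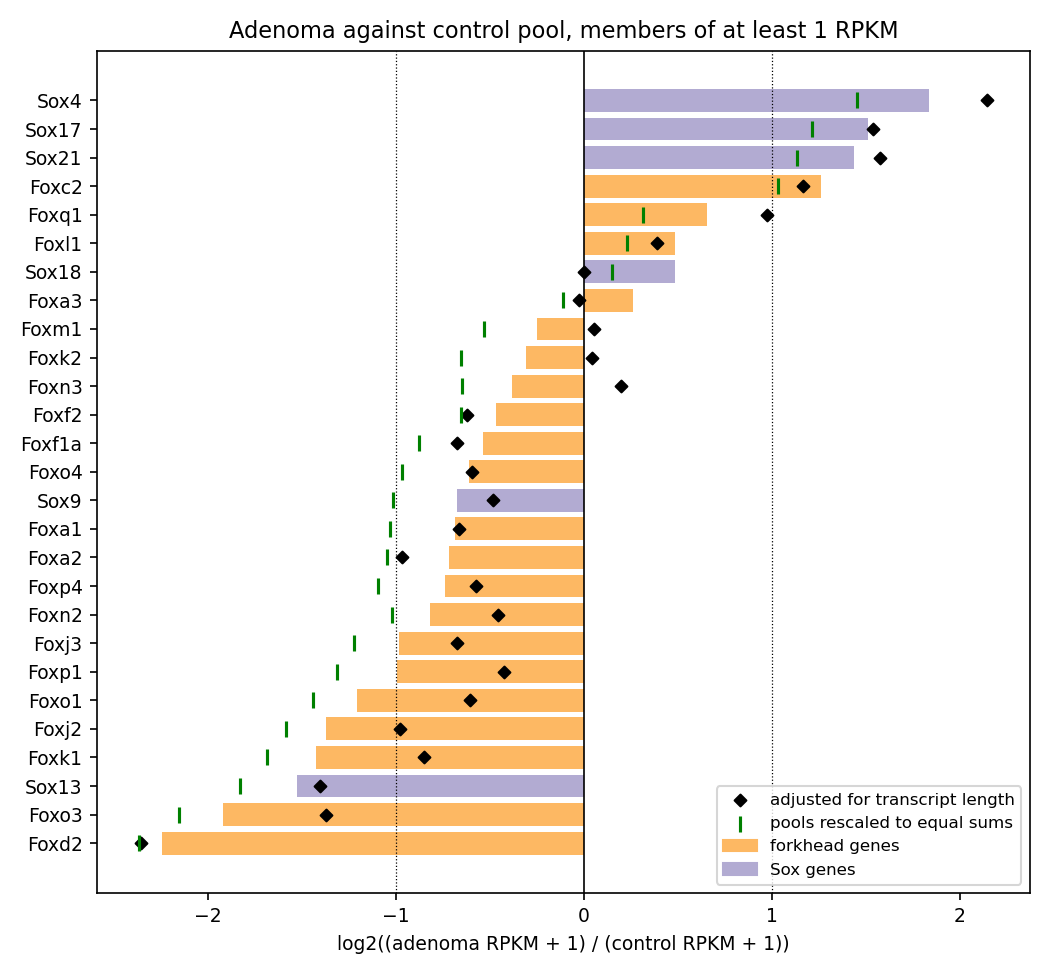
Log2 fold change, adenoma over control, of the 27 members of at least 1 RPKM in either pool (bars, forkhead genes in orange and Sox genes in purple), with the value adjusted for transcript length (diamonds) and with the pools rescaled to equal sums (ticks). Bars run from -2.24 for Foxd2 to 1.83 for Sox4; dotted lines mark 2-fold.

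In these libraries long transcripts were lower in adenoma as a class, and forkhead transcripts are long. The members past the filter had a median longest transcript of 3999 bases, against 3152 for mRNA genes. Among the 5068 mRNA genes between 2715 and 5057 bases, the middle range of the members' lengths, 4.76% passed 2-fold upward and 13.5% downward, with a median of -0.30. After the median of mRNA genes of like length was subtracted and the overall median added back, 4 members lay above 2-fold and 3 below it, against 6.15% and 10.5% of mRNA genes, and the members' median was -0.49. Foxo1 (-0.61), Foxk1 (-0.85) and Foxj2 (-0.98) were the ones no longer past 2-fold, while Sox4 moved further out, to 2.15. This adjustment took the longest annotated transcript of each gene. The lengths used to estimate reads were shorter for Sox4 (2967 against 4795 bases), Foxj2 (3342 against 5283) and Foxo3 (2889 against 6848), among others. Adjustment with those lengths was not run, so the adjusted values of these genes depend on the transcript chosen. With both pools rescaled to equal sums, which lowers all log2 values by up to 0.40, 4 members were higher and 13 lower, against 5.58% and 22.9% of mRNA genes.

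**Figure D3:**
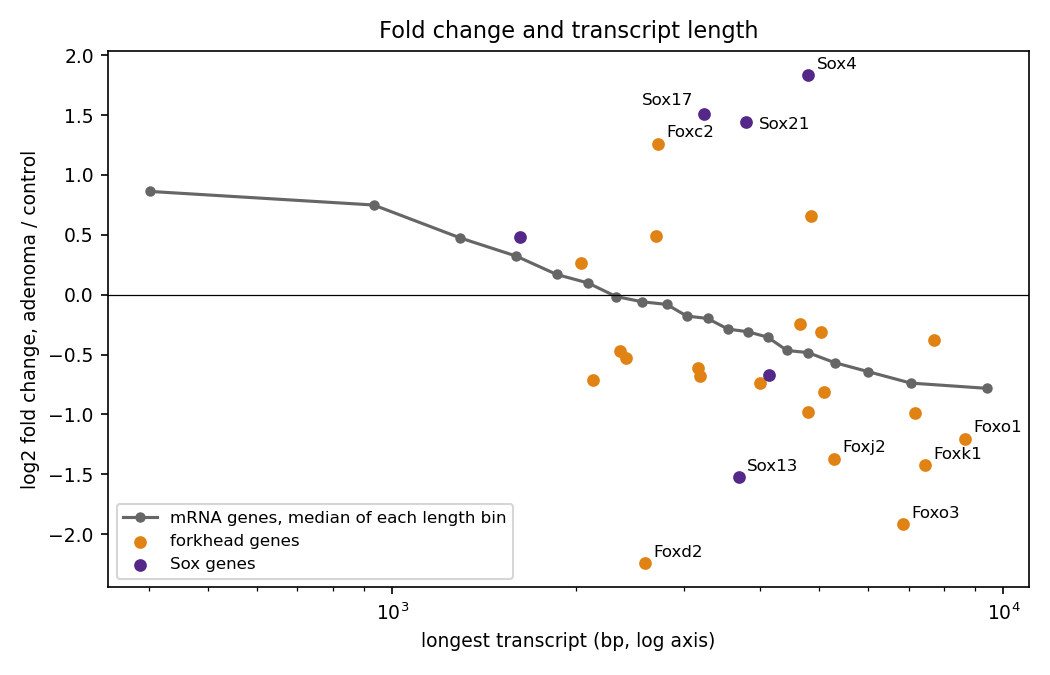
Log2 fold change, adenoma over control, against the longest annotated transcript (log axis) for the 27 members (orange for forkhead, purple for Sox) and as the median of mRNA genes in 20 bins of length (grey line). The grey medians run from 0.86 in the shortest bin to -0.78 in the longest, and the named members lie farthest from 0.

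Sox4, a SoxC activator of progenitor cells that is used in the intestinal secretory and tuft lineages of mice, showed the largest positive log2 fold change of the 27 members with a pseudocount of 1. By the ratio of RPKM, and with a pseudocount of 0.1, Foxc2, Sox17 and Sox21 stood above it. It stood at 24.0 RPKM (2358 reads) in adenoma and 6.00 RPKM (526 reads) in control, 3.99-fold higher (3.63 to 4.40). Only a small share of mRNA genes lay above it, since 97.6% had a lower log2 fold change. Its single exon lies at chr13:28948919-28953713 on the minus strand in GENCODE M21 (GRCm38). The other SoxC genes were weak. Sox11, a gene of developing neural and mesenchymal tissue, was at 0.161 RPKM (44 reads) in adenoma and listed at 0 in control. Its adenoma value was 13.1 times the level that 3 reads would give in control, a floor that was set and not measured. The counting interval of its ratio starts lower, at 10.2. Sox12 was at 0.408 RPKM in adenoma and 0.530 in control, with an interval of the ratio from 0.535 to 1.10 that holds 1.

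Sox21, a SoxB2 repressor known from neural progenitors and skin, was at 3.69 RPKM (465 reads) in adenoma and 0.731 RPKM (82 reads) in control, 5.05-fold higher (3.99 to 6.47). It is a single-exon gene at chr14:118233232-118237030 on the minus strand. The related SoxB1 gene Sox2, a factor of the foregut and stomach, was at 0.209 RPKM (17 reads) in adenoma and 0.110 RPKM (8 reads) in control, and its interval of 0.774 to 5.07 holds 1. Sox1 gave 0.0251 RPKM in control and was listed at 0 in adenoma, and Sox3 and Sox14 were listed at 0 in both pools. Sox21 was thus the 1 SoxB gene of the 5 with more than 1 RPKM.

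The vessel-associated SoxF genes differed from each other. Sox17, which forms endoderm in the embryo, marks arterial endothelium, was at 3.58 RPKM (372 reads) in adenoma and 0.605 RPKM (56 reads) in control, 5.92-fold higher (4.46 to 7.98). Sox18, a factor of blood and lymphatic vessels, was at 6.27 RPKM in adenoma and 4.20 in control, 1.49-fold higher (1.25 to 1.79), and its log2 value of 0.48 shrank to 0.15 at equal sums and to 0.00 after length adjustment. Sox7, also endothelial, went the other way at 0.129 RPKM (14 reads) in adenoma and 0.788 RPKM (76 reads) in control, 6.09-fold lower (3.42 to 11.7). The 9 blood endothelial markers summed to 46.4 RPKM in adenoma and 51.6 in control, none at 0, with Egfl7 at 22.2 and 8.70 RPKM 1 of 9 at least 2-fold higher and Kdr at 1.37 and 4.39 RPKM 1 of 9 lower. Of the 9, 8 were below 0 and the median log2 fold change was -0.64 (-0.32 after length adjustment, where none passed 2-fold). The shares over all mRNA genes past the filter were 10.4% higher and 13.1% lower by 2-fold. Without Egfl7 the markers summed to 24.2 RPKM in adenoma and 42.9 in control. The part of endothelial content in the SoxF values was not tested.

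Foxc2, a factor of lymphatic valves and of mesenchyme, had the greatest ratio of any member above 0 in both pools. It stood at 1.55 RPKM (140 reads) in adenoma and 0.0621 RPKM (5 reads) in control, 24.9-fold higher (10.4 to 78.0). Its paralog Foxc1 was weak at 0.178 RPKM (23.5 reads) in adenoma and 0.106 RPKM (12.5 reads) in control, with an interval of 0.810 to 3.63. Beside Foxc2, the 5 lymphatic endothelial markers summed to 87.4 RPKM in adenoma and 77.7 in control, or 66.4 in adenoma at equal sums, none at 0. They did not move as one: Prox1, the lymphatic fate regulator that intestinal epithelium can also express, was 31.6-fold higher at 11.1 RPKM in adenoma and 0.352 in control. Flt4 was at 0.911 RPKM in adenoma and 3.04 in control, Lyve1 at 5.76 and 12.7 RPKM was also past 2-fold lower, and the most abundant, Ccl21a, stood at 56.4 and 49.5 RPKM. By comparison, 10.4% of mRNA genes past the filter were higher and 13.1% lower by 2-fold. Whether lymphatic cells contributed to the Foxc2 value was not tested.

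Foxc2 lies in a cluster of forkhead genes that did not move together. On chromosome 8, Foxf1 (named Foxf1a in the table, chr8:121084386-121088144), Foxc2 (chr8:121116171-121118895) and Foxl1 (chr8:121127940-121130644) lie within 46.3 kb on the plus strand. Foxf1a was at 7.07 RPKM in adenoma and 10.7 in control, 1.51-fold lower (1.32 to 1.73), and Foxl1, a marker of subepithelial telocytes, was at 2.09 RPKM in adenoma and 1.20 in control, 1.74-fold higher (1.35 to 2.25). On chromosome 13, Foxq1 (chr13:31556134-31560976), Foxf2 (chr13:31625816-31631403) and Foxc1 (chr13:31806633-31812476) span 256 kb on the plus strand. Foxq1, a factor of mucous cells in mouse stomach that colon tumours often express, was at 6.79 RPKM (632 reads) in adenoma and 3.95 RPKM (327.5 reads) in control, 1.72-fold higher, with an upper bound of 1.97 and a log2 value of 0.65. Foxf2 was at 0.994 RPKM in adenoma and 1.76 in control, 1.77-fold lower (1.32 to 2.38). In each cluster the FoxF gene was lower and its neighbours were higher, although the interval for Foxc1 holds 1.

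Foxd2, a forkhead gene of mesenchyme, showed the most negative log2 fold change of the 27 members. It was at 0.495 RPKM (43 reads) in adenoma and 6.07 RPKM (470 reads) in control, 12.3-fold lower (8.97 to 17.2), and 0.767% of mRNA genes had a lower log2 fold change. It is a single-exon gene at chr4:114906282-114908873 on the minus strand, 1 of 4 FoxD genes, of which Foxd1 and Foxd4 were listed at 0 in both pools. Its neighbour Foxe3, in the same 19.7 kb, was also listed at 0 in both.

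The mesenchymal forkhead genes can be set beside markers of their cells and of the Hedgehog signal to which FoxF and FoxL1 genes respond. Of 11 fibroblast and telocyte markers, none at 0, 1 lay above 2-fold and 0 below, with a summed level of 471 RPKM in adenoma and 391 in control, or 358 in adenoma at equal sums. Decorin (Dcn), a matrix proteoglycan, was the most abundant at 250 RPKM in adenoma and 145 in control, Bmp7 was 3.39-fold higher, and the receptor Pdgfrb was at 2.66 RPKM in adenoma and 6.00 in control. Of 8 smooth muscle markers 0 were higher and 3 lower, summing to 1790 RPKM in adenoma and 2178 in control, with Tagln at 597 and 558 RPKM, and Myh11 and Synm lower at -1.53 and -1.38 log2. Among mRNA genes past the filter 10.4% were higher and 13.1% lower by 2-fold, or 6.15% and 10.5% length-adjusted. Of the 8 Hedgehog pathway genes past the filter 1 was higher and 5 were lower (1 and 4 length-adjusted). Their median was -1.21 (after length adjustment -0.82, and -1.33 at equal sums). Bmp4, a mesenchymal target and the most abundant of them in adenoma, was at 11.6 RPKM in adenoma and 29.7 in control. The colonic ligand gene Ihh was at 8.31 RPKM in adenoma and 30.8 in control, 3.71-fold lower, and the receptor and target gene Ptch1 was at 1.32 and 6.69 RPKM. Foxl1 was thus higher beside lower Hedgehog target genes, while both FoxF genes were lower; the relation was not tested.

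FoxO genes, which in other tissues restrain growth when insulin signalling is low, were lower in adenoma. Foxo3 was at 1.64 RPKM (157 reads) in adenoma and 8.97 RPKM (766 reads) in control, 5.48-fold lower (4.61 to 6.55). Foxo1 was at 1.68 RPKM (465.5 reads) in adenoma and 5.18 RPKM (1275 reads) in control, 3.08-fold lower (2.76 to 3.43). Foxo4, the most abundant of them, was at 9.64 RPKM in adenoma and 15.3 in control, 1.58-fold lower (1.46 to 1.72), and Foxo6 was under 1 RPKM in both, at 0.250 and 0.335 with an interval that holds 1. Summed FoxO RPKM was 13.2 in adenoma and 29.8 in control. The length-adjusted log2 values of -1.37 for Foxo3, -0.61 for Foxo1 and -0.60 for Foxo4 kept their sign. Equal sums lower every log2 value, so these signs could not change there.

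Of 17 genes known as FOXO targets that passed the filter, 0 lay above 2-fold and 6 below, with a median of -0.79 that was -0.63 length-adjusted and lower still at equal sums, against a share of 13.1% lower among mRNA genes. After length adjustment 0 of these targets lay above 2-fold and 4 below, against 6.15% and 10.5% of mRNA genes. Txnip, an inhibitor of thioredoxin and glucose uptake, was the most abundant and, on the log2(RPKM + 1) scale, the farthest from 0. It was at 53.8 RPKM in adenoma and 212 in control, 3.95-fold lower. The ubiquitin ligase gene Fbxo32 was 5.06-fold lower at 1.89 RPKM in adenoma and 9.59 in control. By the ratio of RPKM, Insr (6.01-fold lower) and Irs2 (5.08-fold lower) also stood further out than Txnip. Of the 17 targets 14 were below 0, while Bnip3 was 1.85-fold higher. These genes have other regulators too, and no test links them to the FoxO values.

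The FoxK genes and, of the FoxJ genes, Foxj2 and Foxj3 are broadly expressed. Foxk1, a repressor of autophagy genes, was at 2.18 RPKM in adenoma and 7.52 in control, 3.45-fold lower (3.13 to 3.81), while its paralog Foxk2 was at 7.18 and 9.13 RPKM, 1.27-fold lower (1.18 to 1.38), a direction that turned to 0.04 log2 after length adjustment. Foxj2 was at 1.35 RPKM in adenoma and 5.08 in control, 3.76-fold lower (3.12 to 4.54), and Foxj3 at 1.69 and 4.33 RPKM, 2.56-fold lower (2.21 to 2.96). The pair Foxk1 and Foxk2 differed by more than their counting intervals, and the intervals of Foxj2 and Foxj3 do not overlap either. Foxj1, the master gene of motile cilia, was barely read at 5 reads in adenoma and 15 in control. The 5 ciliated cell markers measured summed to 4.35 RPKM in adenoma and 2.82 in control, none at 0, most of it Rsph1 at 3.75 and 1.86 RPKM, the 1 marker past the filter and under 2-fold on the log2(RPKM + 1) scale, and among the others Ccdc39 stood at 0.171 RPKM in adenoma and 0.323 in control.

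FoxA genes act in endodermal epithelium and, in mice, in goblet and enteroendocrine differentiation. Foxa1 was at 8.02 RPKM (848 reads) in adenoma and 13.5 RPKM (1269.5 reads) in control, 1.68-fold lower (1.54 to 1.84), and Foxa2 at 5.90 and 10.3 RPKM, 1.75-fold lower (1.55 to 1.99). Foxa3 was at 17.2 RPKM in adenoma and 14.2 in control, 1.21-fold higher (1.11 to 1.33), but its log2 value of 0.26 became -0.11 at equal sums and -0.02 after length adjustment. Foxa1 and Foxa2 thus stood below control by similar factors and Foxa3 did not. All 8 epithelial markers were detected, 0 past 2-fold upward and 3 downward, and they summed to 6288 RPKM in adenoma and 9626 in control, led by Krt8 at 2514 and 4237 RPKM, with Cdh1 at 44.9 and 137 and Krt20 at 123 and 275. They did not fall as one, although 7 of the 8 were below 0. Krt18 was higher at 483 RPKM in adenoma and 327 in control (0.56 log2, -0.01 length-adjusted), and Cldn7 was nearly level at 428 and 439. Over all mRNA genes past the filter 10.4% were higher and 13.1% lower by 2-fold, or 6.15% and 10.5% length-adjusted. The 12 other endodermal transcription factors past the filter gave 0 higher and 9 lower past 2-fold (0 and 10 length-adjusted). Their median was -1.19 (after length adjustment -1.32, and -1.58 at equal sums). Among them were Elf3, the most abundant, at 136 RPKM in adenoma and 291 in control, Klf4 at 32.2 and 133, and the secretory factor Atoh1 at 3.76 and 18.6. The epithelial share of each pool was not measured.

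Sox9 and Sox13 are tied to Wnt signalling, Sox9 as a target at the crypt base and Sox13 as a SoxD factor that binds the TCF protein encoded by Tcf7. Sox13 was at 3.70 RPKM (434 reads) in adenoma and 12.6 RPKM (1310 reads) in control, 3.39-fold lower (3.04 to 3.79), and the difference kept its direction after length adjustment (-1.40). Sox9 was at 6.59 RPKM in adenoma and 11.1 in control, 1.69-fold lower (1.55 to 1.84). Among mRNA genes past the filter 10.4% lay above 2-fold and 13.1% below it, or 6.15% and 10.5% length-adjusted. Of the 14 Wnt partners past the filter, 7 lay above 2-fold and 2, Tcf7l1 and Apc, below it (7 and 1 length-adjusted), with 5 of the 14 below 0. Their median was 0.98 (after length adjustment 0.79, and 0.66 at equal sums). Their most abundant gene, Ctnnb1, was at 211 RPKM in adenoma and 191 in control, 0.14 on the log2 scale and -0.26 at equal sums, the largest differences were those of the secreted inhibitors Wif1 (6.56 log2) and Notum (6.13 log2), and Tcf7 was 2.69-fold higher at 13.3 and 4.96 RPKM. The remaining SoxD genes were weak, Sox5 at 0.123 RPKM (30 reads) in adenoma and 0.245 RPKM (53 reads) in control, and Sox6 at 0.660 RPKM (180 reads) in adenoma and 0.494 RPKM (120 reads) in control.

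FoxP genes act in lymphocytes and in gut and lung epithelium. Foxp4 was at 9.41 RPKM in adenoma and 16.3 in control, 1.74-fold lower (1.62 to 1.87), and Foxp1 at 4.65 and 10.2 RPKM, 2.20-fold lower (2.05 to 2.37). Foxp3, which defines regulatory T cells, moved opposite to them on few reads, at 0.271 RPKM (34.5 reads) in adenoma and 0.132 RPKM (15 reads) in control, 2.05-fold higher (1.09 to 4.04). Of the 10 T cell markers, none at 0, 7 passed the filter, 4 lay above 2-fold and 0 below, and they summed to 28.5 RPKM in adenoma and 12.8 in control. Of mRNA genes past the filter 10.4% lay above 2-fold and 13.1% below, or 6.15% and 10.5% length-adjusted. Cd3g, the most abundant in adenoma, was at 8.18 RPKM in adenoma and 2.48 in control and Cd3d at 4.56 and 0.992. The markers did not move as one, since Cd3e was at 1.01 RPKM in adenoma and 0.990 in control, Cd4, the most abundant in control, at 2.80 and 3.64, and Ikzf2 at 0.183 and 0.345. After length adjustment 1 of the 7, Cd3g, lay above 2-fold and the median went to 0.38, against 1.14 without it. The marker sum was 2.22-fold higher in adenoma, beside 2.05-fold for Foxp3, and at equal sums it was 21.7 RPKM in adenoma and 12.8 in control. Equal sums multiply every adenoma value by 0.759, which takes the lower bound of 1.09 for Foxp3 below 1. The part of T cell number was not tested. The 6 B and plasma cell markers measured, none at 0, summed to 1186 RPKM in adenoma and 626 in control, with Igj, the joining chain, at 991 and 437 RPKM, the 1 of 6 past 2-fold, followed by Cd79b at 30.4 and 20.1.

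Foxm1, a driver of mitotic genes, differed little, at 2.79 RPKM in adenoma and 3.50 in control, 1.25-fold lower (1.10 to 1.43), and its log2 value of -0.25 became 0.06 after length adjustment. Of 16 mitotic genes known as its targets 3 lay above 2-fold and 0 below it, against 10.4% and 13.1% of mRNA genes past the filter. After length adjustment 2 lay above and 0 below, against 6.15% and 10.5%. Counts this small say little about the list. Their median of 0.30 became -0.04 at equal sums (0.31 length-adjusted). Ccnb2, a cyclin gene with the highest level over both pools together, was at 24.5 RPKM in adenoma and 14.7 in control. Cenpa, the centromeric histone, was farthest from 0 at 3.03-fold higher and led the list in adenoma, while the kinase gene Plk1 led it in control, at 13.2 RPKM in adenoma and 17.5 in control. Cdkn3 was at 21.5 and 7.18 RPKM. Foxn2 and Foxn3, of the FoxN group, were both lower, but under 2-fold on the log2 scale. Foxn3 was at 2.45 RPKM in adenoma and 3.48 in control, 1.42-fold lower (1.28 to 1.58) but at 0.20 log2 after length adjustment, and Foxn2 at 1.19 and 2.85 RPKM was 2.40-fold lower (2.03 to 2.85).

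Neural crest factors of enteric glia were lower in adenoma on few reads. Sox10, which enteric glia and their precursors require, was at 0.222 RPKM (20 reads) in adenoma and 0.979 RPKM (78.5 reads) in control, 4.41-fold lower (2.67 to 7.60). Foxd3, a specifier of the neural crest, was at 0.0889 RPKM (7 reads) in adenoma and 0.542 RPKM (38 reads) in control, 6.09-fold lower (2.69 to 16.2). The SoxE gene Sox8 was read 1 time in adenoma and 15 times in control, with a ratio of 0.0594 (0.00141 to 0.386). These genes lay under the 1 RPKM filter in both pools and are in none of the counts above. The 7 glia markers, none at 0, summed to 8.98 RPKM in adenoma and 29.7 in control, most of it Erbb3, which epithelium also expresses, at 5.62 and 23.4 RPKM, and of the 4 past the filter 0 lay above 2-fold and 2 below. Of the more restricted markers Gfra3 was at 0.197 RPKM in adenoma and 1.83 in control and Gfap at 0.932 and 0.884. The 8 enteric neuron markers, none at 0, summed to 29.1 RPKM in adenoma and 42.4 in control, 0 of 6 higher and 1 lower, with Vip at 16.3 and 24.0, Snap25 at 0.645 and 3.10 and Nos1 at 0.220 and 1.43. Both lists stand against 10.4% higher and 13.1% lower by 2-fold among mRNA genes past the filter. How much of the outer gut wall each pool held was not measured.

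**Figure D4:**
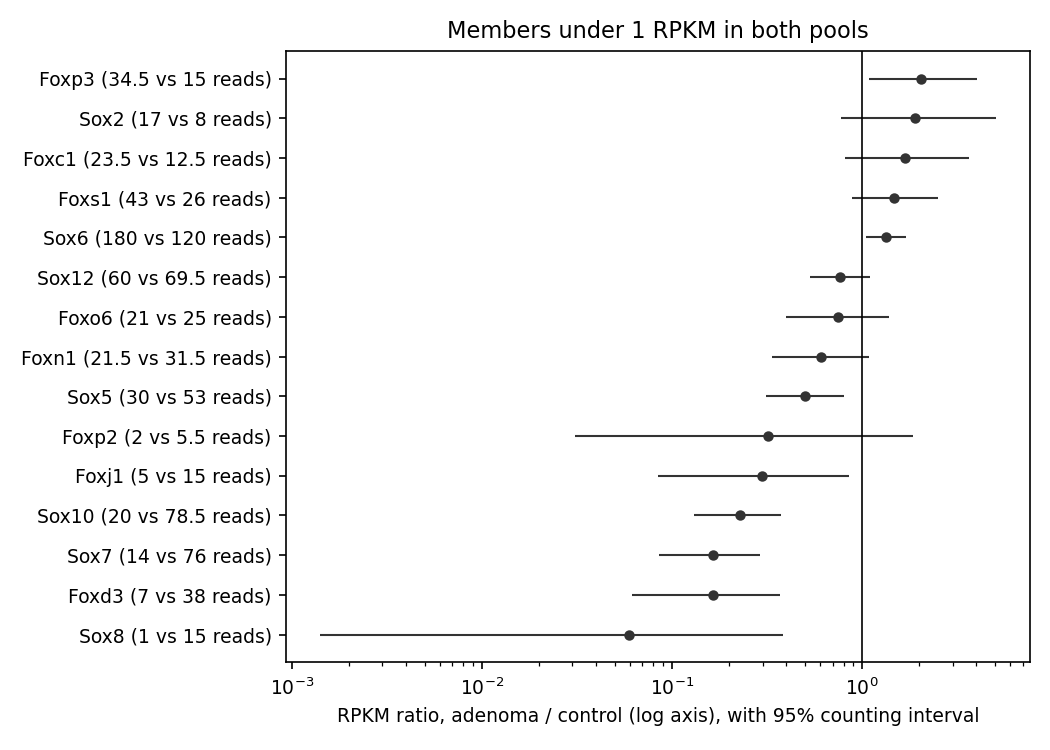
Ratio of RPKM, adenoma over control (log axis), with the 95% counting interval, for the 15 members that were under 1 RPKM and above 0 in each pool, with the estimated reads in adenoma and control beside each name. The intervals of Sox8, Foxd3, Sox7, Sox10, Foxj1 and Sox5 lie below 1 and those of Foxp3 and Sox6 above 1. Values are as deposited, and at equal sums the intervals of Foxp3 and Sox6 would hold 1.

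The remaining members gave little signal. Foxs1, a gene of pericytes in mice, was at 0.989 RPKM (43 reads) in adenoma and 0.671 RPKM (26 reads) in control and Foxn1, the thymic epithelial factor, at 0.259 and 0.426 RPKM, with intervals that hold 1. Foxp2 was at 0.00886 RPKM in adenoma and 0.0277 in control. Foxi3 (2 reads) and Sox30 (1 read) were above 0 in adenoma and listed at 0 in control, and Foxh1 (1 read) was listed at 0 in adenoma and above 0 in control. Among the 16 members listed at 0 in both pools were Foxb1, Foxb2, Foxd1, Foxd4, Foxe1, Foxe3, Foxi1, Foxi2, Foxl2, Foxn4, Foxr1, Foxr2, Sox3, Sox14 and Sox15. Over the 16, 3 reads would have given 0.0179 to 0.105 RPKM in adenoma and 0.0200 to 0.118 RPKM in control.

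**Figure D5:**
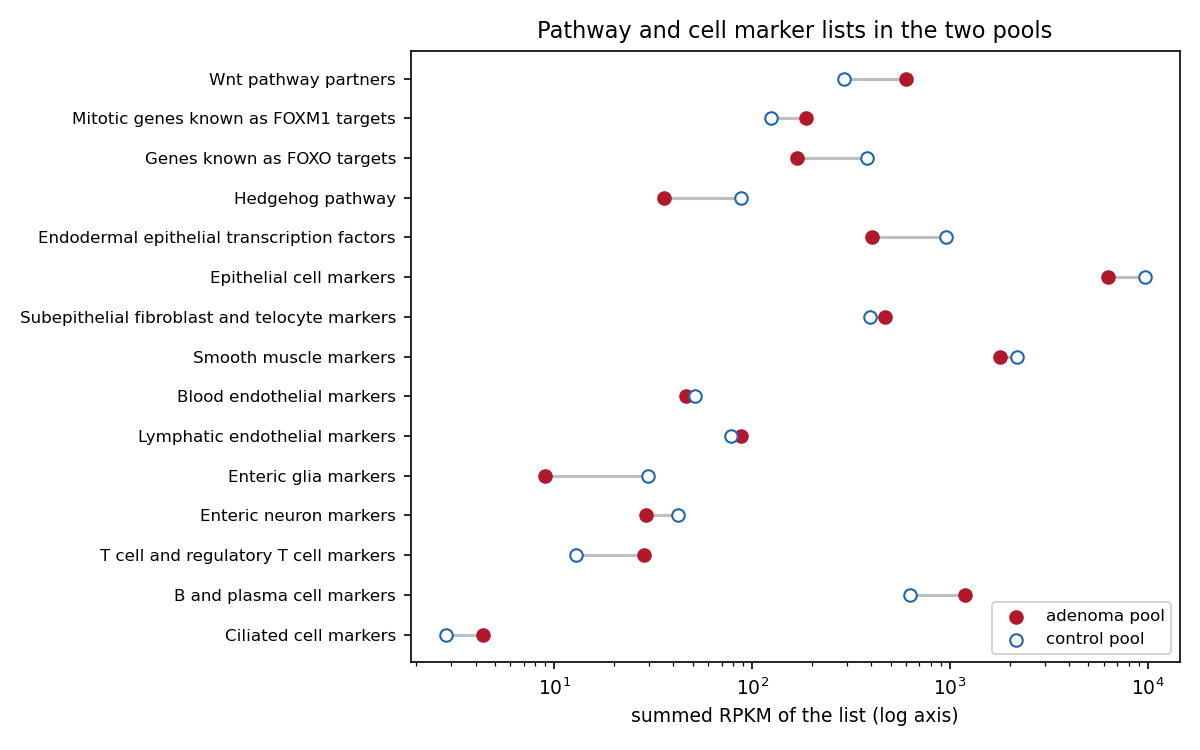
Summed RPKM (log axis) of each pathway and cell marker list in the adenoma pool (filled) and the control pool (open). The FOXO target, Hedgehog, endodermal factor and enteric glia lists lie further left in adenoma and the Wnt and T cell lists further right, at 599 against 292 RPKM for Wnt. Most of the Wnt difference came from Wif1 (126 RPKM in adenoma, 0.347 in control), Nkd1 (83.5 and 3.15) and Notum (82.2 and 0.184). Of the 14 Wnt genes past the filter 5 were below 0.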

How the data were processed

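Expression came as RPKM, which the authors deposited for each pool beside symbols and types, per the file headers. The submitters' processing notes name the build GRCh37, a human assembly, although the symbols are those of mouse; the aligner, counting method and annotation are not given in the sources used here, and the labels name both a Proton and an Illumina process. GENCODE M21 and RefSeq on GRCm38 served here for lengths, coordinates and promoters.

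The log2 fold change used a pseudocount of 1, a filter of 1 RPKM in either pool and a threshold of 2-fold. Library totals, recovered from single-exon short RNA genes, were 33174626 reads for adenoma and 29548883 for control. For 36 of the 42 members above 0 in both pools a gene length was found at which both pools gave whole reads or steps of 0.5 within 0.001, taking the one within 5% of a GENCODE transcript or otherwise the shortest; the other 6 used the longest transcript. For genes above 0 in 1 pool, and where the shortest length was taken, reads are approximate. This choice replaced the longest transcript for all members after the data were seen, and with both, 11 intervals lay above 1, 25 below and 11 held 1, out of 47.

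Members named with both values were those past 2-fold, those of at least 5 RPKM in either pool, and the 3 most abundant of each family in each pool. Other members are given by name, some with values chosen after these were seen. Of each list the most abundant gene over both pools together and the pair with the largest log2 fold changes are named. Tcf7, Tcf7l1, Apc, Nkd1, Plk1, Cd3e, Cd4, Ikzf2, Lyve1, Ccdc39, Gfap, Shh, Krt18, Cldn7, Insr, Irs2 and Bnip3 were added after their values were seen. The members and lists were chosen with earlier results of these data known. Every list count past 2-fold stands against 10.4% higher and 13.1% lower among mRNA genes past the filter. Alternatives were pseudocounts of 0.1 and 5, no filter and 5 RPKM, scaling by equal sums, median ratio, upper quartile and trimmed mean, length adjustment over 20 bins, and thresholds of 1.5-fold and 4-fold. Simulated read counts served to test the log2 fold change with its filter and threshold, and the coverage of the counting intervals. They held counting error only and no trend with length. The recovery of library totals, gene lengths and reads, the scalings and the length adjustment were not tested. Python 3.11.15, pandas 2.3.3, numpy 2.4.6, scipy 1.17.1 and matplotlib 3.10.9 were used. Some single genes are not reported here.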

Additional observations from a re-analysis of the deposited data

How the results depend on the processing

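The 4 higher and 6 lower members stayed within 1.5 times under the median ratio, upper quartile and trimmed mean scalings, without a filter, and with a pseudocount of 0.1 (4 and 9). With a pseudocount of 5 there were 1 higher and 3 lower, and with a 5 RPKM filter 1 higher and 6 lower. Lower members numbered 13 at equal sums and 3 after length adjustment. A threshold of 1.5-fold gave 5 higher and 14 lower of the 27 members, against 19.5% and 29.2% of mRNA genes. A threshold of 4-fold gave 0 higher and 1 lower, against 1.82% and 1.29%. The share of lower mRNA genes was also larger with a pseudocount of 0.1, at 20.4%, beside the 9 lower members. By construction a larger pseudocount shrinks the values of low genes, the stricter filter drops members, and equal sums multiply every adenoma value by 0.759. The members' median stayed negative under every setting with a filter, and was 0 without one, where unread genes enter. Every member past 2-fold kept its sign in the 7 other settings for single genes, but these settings could hardly have changed it. A change of pseudocount alone cannot turn a sign, and the scalings shift log2 values by at most 0.40. Length adjustment subtracts medians from -0.78 to 0.86 log2, which is less than 2-fold. The kept signs are thus no check of the differences. No paired analysis was possible because each group holds 1 library, and none could be left out. Depth limits the members under 1 RPKM, which rest on at most 180 reads.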

Other observations

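The Hedgehog ligand genes moved in opposite directions. Shh, the ligand of stomach and fetal gut, was at 1.58 RPKM in the adenoma pool and 0.0127 in the control pool, while Ihh, the ligand of adult colon, was at 8.31 and 30.8 RPKM. Mthfsd, a gene next to Foxf1 and Foxc2 on chromosome 8, was at 9.09 RPKM in the adenoma pool and 6.18 in the control pool.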
